A study of Mus musculus with 32 samples.

Results

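The B cell receptor is a membrane immunoglobulin held in a complex with a signalling dimer, and 7 genes of this receptor and its relatives were followed here through the multipotent progenitors of mouse bone marrow: Cd79a, Cd79b, Igll1, Vpreb1, Ighm, Jchain and Blnk. They were chosen by gene name from a table of 30644 genes, each name matched 1 row, and all 7 passed the filter on low counts among 18676 tested genes. The progenitors were sorted as the subsets MPP1, MPP2, MPP3 and MPP4 from C57BL/6 mice. The mice were wild type, +/1013 or 1013/1013, that is, they carried 0, 1 or 2 copies of the 1013 allele of Cxcr4, the chemokine receptor that retains progenitors in the marrow. The allele shortens the tail of the receptor, as in the human WHIM syndrome. Each subset had 3 wild-type, 3 +/1013 and 2 1013/1013 libraries, 32 libraries in 12 groups. Each library was made from a pool of 3000 sorted cells by SMART-Seq v4 amplification of 350 to 1000 pg of RNA. The labels give no age or sex of the mice, and do not say which libraries came from separate animals, so the p-values measure only the spread between these libraries.

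In B cell development, the membrane form of the mu heavy chain, encoded by Ighm, first pairs with a surrogate light chain made of the Igll1 (lambda 5) and Vpreb1 proteins. This pre-B cell receptor, like the later receptor with a true kappa or lambda light chain, signals through the dimer of Cd79a and Cd79b. Kinases activated by the dimer use the adaptor encoded by Blnk to reach phospholipase C. Jchain encodes the joining chain of secreted pentameric IgM and dimeric IgA and is known as a gene of plasma cells. The mu locus is also known to be transcribed in lymphoid progenitors before any rearrangement, so RNA of Ighm alone does not mean that a heavy chain is made.

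Library totals ran from 13016038 to 37050983 counts. Surface markers of the sort followed the labels in outline: Flt3, the receptor that marks MPP4, had a median of 400 CPM (TMM-scaled counts per 1000000) in MPP4 and 22.6 CPM in MPP1, and Slamf1, a marker of MPP1 and MPP2, had a median of 0 CPM in MPP3 and in MPP4. Cxcr4 itself had counts in all 32 libraries, from 7.32 to 133 CPM, which does not read the allele, since gene counts do not resolve the changed tail. A library stood apart within MPP1: +/1013 library 1 had 226 CPM of Cd48, a surface marker that MPP1 is sorted to lack, against 11.2 to 144 CPM in the other 7, and it alone of MPP1 carried much immunoglobulin RNA, as given below. Across the subsets, 8 libraries, called multiple-of-3 libraries here after their bracketed number in the labels (wild type 3 and +/1013 3 of MPP2, MPP3 and MPP4, and 1013/1013 2 of MPP2 and MPP4) had more RNA of mature neutrophils, with a median summed level over 10 marker genes of 2509 CPM against 10.2 CPM in the other 24. The labels do not call them a batch, and no MPP1 library is among them. Without them, MPP2 and MPP4 keep a lone 1013/1013 library each.

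The promoters of 3 members are shown because their genes share a function in the pre-B cell receptor and because Igll1 and Vpreb1, whose starts lie 5270 bases apart on chromosome 16, varied together across the libraries. The sequences are those of RefSeq on GRCm38.p6, the assembly of mm10, from 250 bases before the start of the gene to 50 bases after it, on the strand of the gene. Cd79a lies on the plus strand at chr7:24897247-24897546, Igll1 on the minus strand at chr16:16863936-16864235 and Vpreb1 on the minus strand at chr16:16869206-16869505. Capitals mark matches to 4 motifs searched on both strands, the EBF1 core CCCNNGGG, the E-box CAGNTG, the octamer ATGCAAAT and the ETS site AGGAAGT.
Cd79a: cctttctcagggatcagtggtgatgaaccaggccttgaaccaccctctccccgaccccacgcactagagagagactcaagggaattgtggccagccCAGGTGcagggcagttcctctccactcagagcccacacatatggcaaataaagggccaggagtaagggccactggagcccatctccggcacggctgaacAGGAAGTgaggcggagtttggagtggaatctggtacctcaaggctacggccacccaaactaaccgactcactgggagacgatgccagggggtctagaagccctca
Igll1: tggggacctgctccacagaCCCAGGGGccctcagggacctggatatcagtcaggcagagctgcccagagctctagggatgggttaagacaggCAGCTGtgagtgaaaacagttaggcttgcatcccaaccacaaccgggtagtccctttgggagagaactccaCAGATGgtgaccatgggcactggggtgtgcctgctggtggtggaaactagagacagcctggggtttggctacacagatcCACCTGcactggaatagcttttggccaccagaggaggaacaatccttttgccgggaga
Vpreb1: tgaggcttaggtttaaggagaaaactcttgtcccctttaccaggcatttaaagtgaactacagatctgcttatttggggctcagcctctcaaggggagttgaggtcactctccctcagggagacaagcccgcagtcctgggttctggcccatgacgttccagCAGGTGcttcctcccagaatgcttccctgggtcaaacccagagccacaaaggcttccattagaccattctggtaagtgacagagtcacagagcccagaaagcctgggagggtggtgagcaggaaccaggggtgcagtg
Cd79a held 1 E-box, CAGGTG, and 1 ETS site. Igll1 held 1 EBF1 core, CCCAGGGG, beginning 231 bases before the start, and 3 E-boxes, and Vpreb1 held 1 E-box 88 bases before its start. The Jchain promoter held 2 E-boxes, and that of Blnk 2 E-boxes, 1 octamer and 1 ETS site. No matches overlapped in these promoters. Of 32851 promoters of the same length, 13.7% held the EBF1 core, 51.4% the E-box, 1.74% the octamer and 9.35% the ETS site. These matches are letters in a window and do not show binding. The gene for EBF1 itself, the factor known to switch on Cd79a, Igll1 and Vpreb1, had a median of 0 CPM in MPP1 and MPP2, 0.0332 CPM in MPP3 and 0.261 CPM in MPP4, and its highest library had 3.03 CPM. Pax5, which commits cells to the B lineage, had counts in 2 of 32 libraries, both MPP4, at 0.524 CPM at most.

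**Figure D1:**
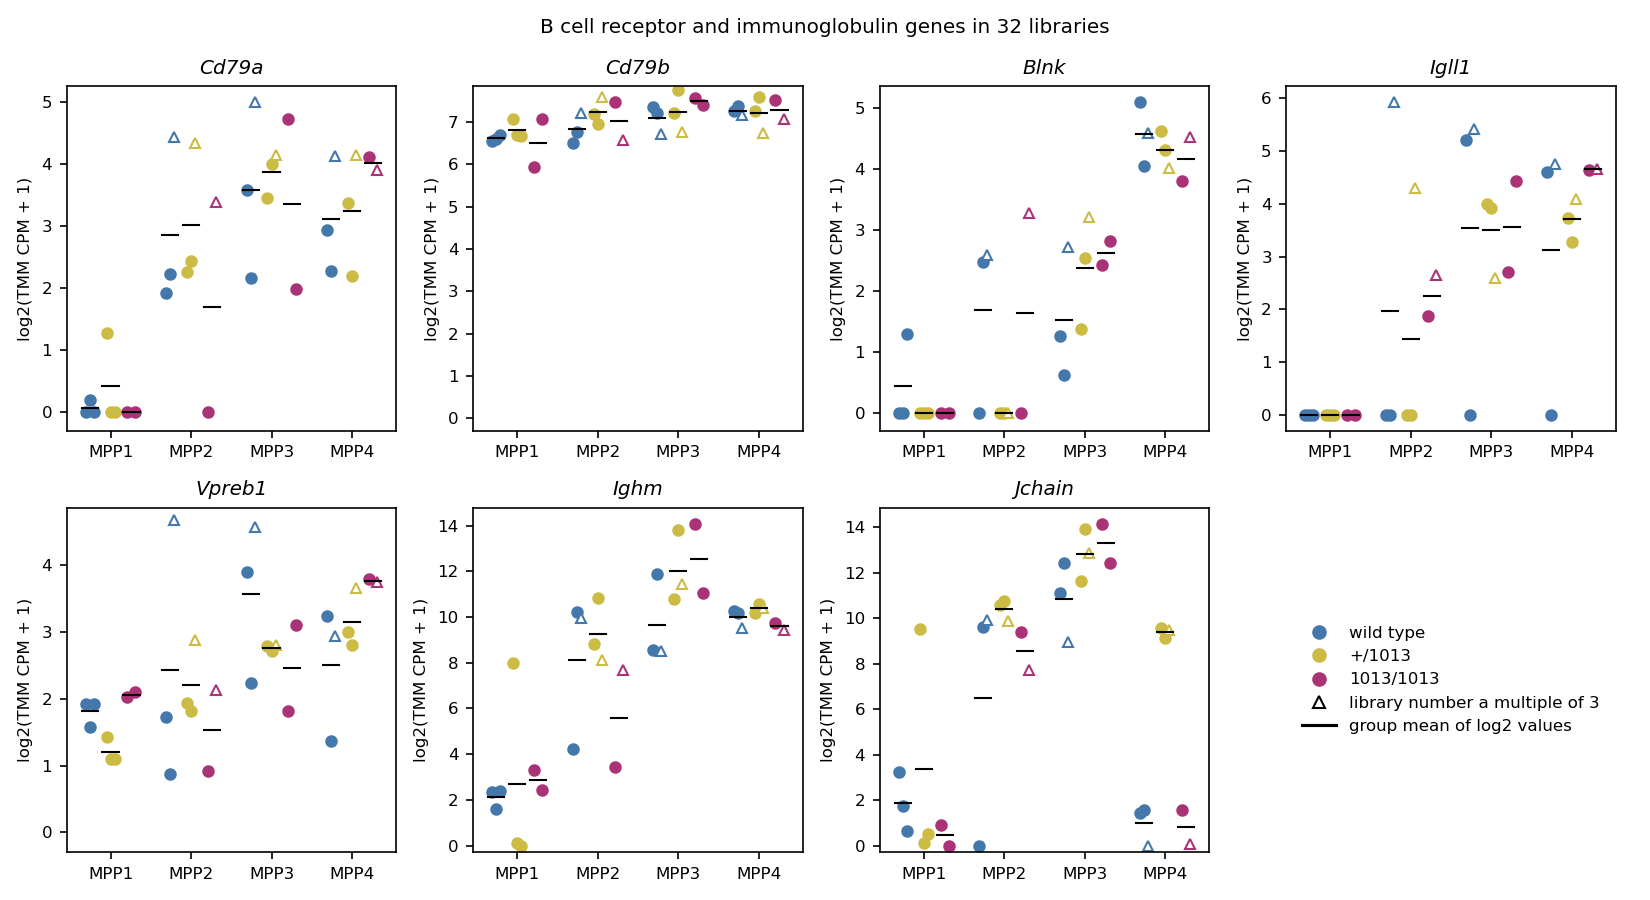
Levels of the 7 genes in each of 32 libraries, as log2(TMM CPM + 1), by subset on the x axis and genotype in colour. Points are libraries, open triangles are the 8 multiple-of-3 libraries, and short lines are group means of the log2 values (n = 3, 3 and 2). Cd79b lay in a narrow band in all subsets, Blnk was highest in MPP4, and Jchain separated the +/1013 libraries of MPP4 from the other MPP4 libraries.

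The signalling dimer was represented unequally. Cd79b (chr11:106311341-106314762, minus strand) was present in all 32 libraries, at 59.8 to 215 CPM, and Cd79a (chr7:24897381-24902197, plus strand) was nearly absent from MPP1 and present in the other subsets. From lowest to highest, the mean ± SD of Cd79b over 8 libraries was 102 ± 23.3 CPM for MPP1, 134 ± 36.8 for MPP2, 153 ± 27.4 for MPP4 and 155 ± 37.5 for MPP3. In that order, neighbours from MPP2 on differed by less than the SD of either. MPP1 and MPP2 differed by more than the SD of MPP1 and by less than that of MPP2. Cd79a had 0, 0.149 and 0 CPM in wild-type MPP1, 1.41, 0 and 0 in +/1013 MPP1 and 0 and 0 in 1013/1013 MPP1. In MPP4 it had 6.62, 3.84 and 16.5 CPM in wild type, 9.33, 3.6 and 16.6 in +/1013 and 16.3 and 14 in 1013/1013. All 8 MPP4 libraries lay above all 8 MPP1 libraries, and so did all 8 of MPP3, which had 2.97 to 31.1 CPM. MPP2 ranged from 0 to 20.6 CPM and overlapped MPP1. Its 3 highest values, 20.6, 19.2 and 9.44 CPM, were in its 3 multiple-of-3 libraries. Over all subsets, Cd79a had a median of 16.7 CPM in the 8 such libraries and 3.55 CPM in the other 24. The other 24 include all 8 MPP1 libraries, so this difference mixes subset with library number. Within MPP4 the 3 such libraries, at 16.5, 16.6 and 14 CPM, overlapped the others, at 3.6 to 16.3 CPM. The part of the neutrophil RNA that the 8 libraries carry in the difference was not tested.

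The surrogate light chain genes were low and rose and fell together. Igll1 (chr16:16860671-16863985, minus strand) had no count in any MPP1 library, where 3 counts per library would correspond to 0.128 CPM on average. In MPP2 it had counts in 4 of 8 libraries, 60.2 CPM in wild type 3, 18.8 in +/1013 3, and 2.67 and 5.27 in 1013/1013 1 and 2. Of these 4, all but 1013/1013 1 are multiple-of-3 libraries. MPP3 had counts in 7 of 8 libraries, up to 41.9 CPM, and MPP4 in 7 of 8, up to 26.1 CPM, and in both subsets the library without a count was wild type 2. Vpreb1 (chr16:16868403-16869255 in the deposited table, minus strand) had counts in all 32 libraries, ranging from 1.14 to 3.31 CPM (MPP1), from 0.840 to 24.5 (MPP2), from 2.54 to 22.9 (MPP3) and from 1.58 to 12.9 (MPP4). In MPP2, wild type 3, +/1013 3 and 1013/1013 2, at 24.5, 6.4 and 3.39 CPM, lay above the MPP1 range, and all 3 are multiple-of-3 libraries. Across the 32 libraries, log2(CPM + 1) of Igll1 and Vpreb1 had a Pearson correlation of 0.87, and of 0.83 across the 24 libraries outside these 8, as a description of libraries that share these groups. In GENCODE M21 the annotated Vpreb1 gene runs further, to 16870843, and shares 108 exonic bases with Top3b on the opposite strand. These bases, at 16870736 to 16870843, lie beyond the end of Vpreb1 in the deposited table, 16869255. The strand setting of the counting is not given in the sources used here, and Top3b had 3.82 to 90.8 CPM. Whether reads of Top3b entered the Vpreb1 counts was not tested. Vpreb1 and its close relative Vpreb2 can also share reads. Vpreb2 had 0 to 16.5 CPM in MPP4 and at most 0.733 CPM in MPP1.

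Ighm (chr12:113418558-113422730, minus strand) had the most even level in MPP4 and its highest level in MPP3. In MPP4 it had 1234, 1152 and 732 CPM in wild type, 1174, 1513 and 1343 in +/1013 and 861 and 688 in 1013/1013. In MPP3 it had 373, 3757 and 361 CPM in wild type, 1774, 14521 and 2781 in +/1013 and 17459 and 2099 in 1013/1013. The highest and lowest MPP4 libraries thus differed far less than those of MPP3. MPP2 had 17.5, 1198 and 981 CPM in wild type, 448, 1826 and 279 in +/1013 and 9.98 and 204 in 1013/1013. In MPP1, +/1013 library 1 had 256 CPM and the other 7 libraries had 0 to 8.78 CPM. All libraries of MPP3 and of MPP4 were above all of MPP1, and MPP2 overlapped MPP1. By length, the mean level in MPP4 was 681 ± 186 CPM per kilobase for Ighm, 137 ± 190 for Jchain, 116 ± 20.9 for Cd79b, 19.4 ± 10.7 for Igll1, 10.9 ± 5.04 for Vpreb1, 9.82 ± 3.11 for Blnk and 7.44 ± 3.90 for Cd79a (n = 8). Within that order, Ighm stood above the rest by more than the spread, and neighbouring genes from Igll1 down did not. The place of Jchain rests on the 3 +/1013 libraries: its median over the 8 was 1.03 CPM per kilobase, below the medians of the other 6 members, of which that of Cd79a was the lowest at 7.99.

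Jchain (chr5:88519809-88527891, minus strand) did not keep to the subset pattern of Ighm. MPP3 had 2206, 5407 and 492 CPM in wild type, 3157, 15529 and 7326 in +/1013 and 18165 and 5510 in 1013/1013. MPP2 had 0, 778 and 963 CPM in wild type, 1536, 1733 and 937 in +/1013 and 660 and 209 in 1013/1013. In MPP4 it had 1.73, 1.92 and 0 CPM in wild type, 765, 560 and 713 in +/1013 and 1.94 and 0.0376 in 1013/1013. The 3 +/1013 libraries of MPP4 thus had 560 CPM or more, and the 5 other MPP4 libraries at most 1.94 CPM. Against the 3 wild-type libraries alone, 3.16% of tested genes had all +/1013 libraries higher (6.03% did not overlap in either direction). The share for the 5 others together was not computed. In MPP1, +/1013 library 1 had 723 CPM and the other 7 had 0 to 8.33 CPM. In these bulk samples, fewer cells of a type and less RNA per cell cannot be told apart.

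Blnk (chr19:40928927-40994535, minus strand) was the member most restricted to MPP4. In MPP4 it had 33.5, 15.6 and 23 CPM in wild type, 23.6, 18.8 and 15.3 in +/1013 and 13 and 22.1 in 1013/1013. All 8 values exceeded those of every other library, since MPP3 had 0.533 to 8.24 CPM, MPP2 had counts in 3 libraries only (wild type 2 and 3 and 1013/1013 2, at 4.53, 5.01 and 8.66 CPM), and MPP1 had counts in wild type 3 alone, at 1.46 CPM. The genotypes overlapped within MPP4. All MPP4 libraries were above all MPP3 libraries for 0.428% of tested genes, and above all MPP1 libraries for 1.83%. The share above every other library was not computed.

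The comparison of subsets asked which members accompany the passage from MPP1, the subset closest to stem cells, to the lymphoid-primed MPP4, as the mean of the 3 genotypes. In MPP4 against MPP1, 6 of 7 members were higher by edgeR's quasi-likelihood test with Benjamini-Hochberg adjustment over all genes, where 7.59% of tested genes were called higher and 7.12% lower, 14.7% in all. Ighm rose by 6.36 on the log2 scale (SE 1.36, adjusted p = 0.00309). Cd79a rose from a mean of 0.195 ± 0.495 to 10.8 ± 5.69 CPM (n = 8 each), a 55.5-fold ratio of means (adjusted p = 0.00119). Its MPP1 mean rests on 24 counts, most of them in +/1013 library 1. In wild type alone the ratio of means was 181, with 3 counts in MPP1. Blnk rose 113-fold, from 0.182 ± 0.515 to 20.6 ± 6.51 CPM (n = 8 each, adjusted p = 0.00131), with MPP1 resting on 38 counts in 1 library. Igll1, with no count in MPP1, was at least 132-fold higher in MPP4 against a floor of 3 counts per library (16.9 ± 9.32 CPM, n = 8, adjusted p = 0.00914). Fitted log2 values of genes with groups at 0 depend on the prior count. The calls of such genes against MPP1 are therefore given with ratios of means. In the genotype comparisons their fitted values are given, with the groups at 0 named. Vpreb1 rose by 1.92 (SE 0.58, adjusted p = 0.0278) and Cd79b by 0.59 (SE 0.19, adjusted p = 0.0383) on the log2 scale. These last calls were the least stable. That of Cd79b was lost with RLE size factors (adjusted p = 0.0570) and with a term for the 5 highest-numbered libraries (0.0545), and that of Vpreb1 with a term for the 8 multiple-of-3 libraries (0.0570). Single libraries ended them too. That of Cd79b was lost without any 1 of wild type 1, 2 or 3, +/1013 2 or 3 or 1013/1013 1 of MPP1, or wild type 1 or 2, +/1013 1 or 2 or 1013/1013 1 of MPP4 (adjusted p up to 0.172), and that of Vpreb1 without wild type 2, +/1013 3 or 1013/1013 1 or 2 of MPP1, or wild type 1 or 1013/1013 2 of MPP4 (up to 0.105). Jchain did not pass (log2 0.31, SE 1.28, adjusted p = 1). Without the MPP1 +/1013 library 1, which stood apart, the difference of Jchain was 3.57 with an adjusted p of 0.0396, and the other 6 members also passed. That value averages genotypes that differ: in wild type alone Jchain was lower in MPP4, by -1.61 on the log2 scale (SE 2.01, adjusted p = 0.935), with mean levels of 1.22 CPM in MPP4 and 3.75 CPM in MPP1. All MPP4 libraries were above all MPP1 libraries for 3 members, Cd79a, Ighm and Blnk, as they were for 1.83% of tested genes (3.48% did not overlap in either direction). In wild-type libraries alone, 0 of 7 members passed by edgeR (0.76% of tested genes were called, 0.45% higher and 0.311% lower), 5 had an unadjusted p under 0.05, and DESeq2 called 4, Cd79a, Igll1, Ighm and Blnk. The wild-type differences by edgeR were 8.22 for Ighm (SE 2.23, adjusted p = 0.104) and 7.44 for Cd79a (SE 2.16, adjusted p = 0.153).

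**Figure D2:**
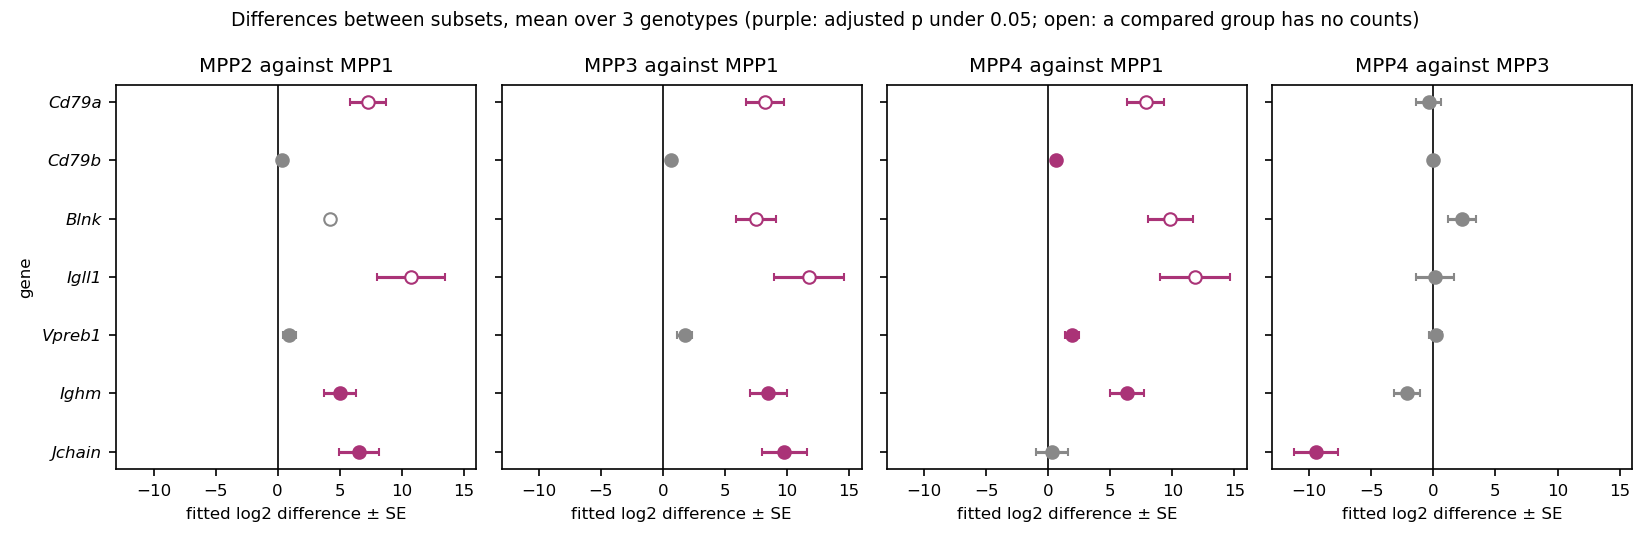
Fitted log2 differences with SE for the 7 genes in 4 comparisons of subsets, each the mean over 3 genotypes. Purple points passed an adjusted p of 0.05, and open points have a compared group without counts, so that their position depends on the prior count. Jchain is the purple point left of 0 in MPP4 against MPP3.

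In MPP3 against MPP1, 5 of 7 members were higher, where 2.36% of tested genes were higher and 0.75% lower, 3.11% in all. Ighm rose by 8.50 (SE 1.52, adjusted p = 0.00266) and Jchain by 9.77 (SE 1.81, adjusted p = 0.00347) on the log2 scale. Cd79a was 73.9-fold higher as a ratio of means (14.4 ± 9.91 CPM in MPP3, n = 8, adjusted p = 0.00354), Blnk 22.4-fold (4.07 ± 2.67 CPM, n = 8, adjusted p = 0.0173) and Igll1 at least 135-fold (17.3 ± 15.0 CPM, n = 8, adjusted p = 0.0300). Vpreb1 (log2 1.74, SE 0.57, adjusted p = 0.0934) and Cd79b (0.62, SE 0.19, adjusted p = 0.0731) did not pass. These calls depended on both 1013/1013 libraries of MPP1: without library 1, those of Cd79a, Igll1, Ighm and Blnk were lost (adjusted p from 0.0645 to 0.159), and without library 2, those of Igll1, Ighm, Jchain and Blnk (0.0504 to 0.122), while Cd79b passed without library 2 (0.0364). Igll1 was also lost without 1013/1013 library 2 of MPP3 (0.0700), and Blnk without the 8 multiple-of-3 libraries (log2 6.87, adjusted p = 0.0514), where Cd79b passed in its place (0.75, adjusted p = 0.0255). DESeq2 called all 7 members higher, with adjusted p-values of 0.0297 for Cd79b and 0.0173 for Vpreb1. Cd79a and Ighm were the members with all MPP3 libraries above all MPP1 libraries, as were 0.825% of tested genes (1.41% in either direction).

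In MPP2 against MPP1, 4 of 7 members were higher, where 5.01% of tested genes were higher and 1.72% lower, 6.73% in all, but without the 8 multiple-of-3 libraries 1 member, Jchain, passed. Jchain rose by 6.57 (SE 1.59, adjusted p = 0.0155) and Ighm by 5.02 (SE 1.26, adjusted p = 0.0189) on the log2 scale, Cd79a was 40.9-fold higher as a ratio of means (adjusted p = 0.00596) and Igll1 at least 85-fold (adjusted p = 0.0254). Without the 8 libraries Ighm had a difference of 3.93 (adjusted p = 0.0859), and Cd79a and Igll1 had adjusted p-values of 1. The call of Igll1 was also lost with a term for these 8 (adjusted p = 0.101) and, like that of Ighm (0.0731), with the term for the 5 highest-numbered libraries (0.0503). Single libraries counted as well. The call of Cd79a was lost without 1013/1013 1 of MPP1 or 1013/1013 2 of MPP2, those of Ighm and Jchain without either 1013/1013 library of MPP1, and that of Igll1 without either of these or without wild type 3, +/1013 3 or 1013/1013 1 of MPP2 (adjusted p from 0.0531 to 1 over these members). Vpreb1, Cd79b and Blnk did not pass, with adjusted p-values of 0.320, 0.220 and 1, although DESeq2 called Blnk (0.0202). No member had all MPP2 libraries above all MPP1 libraries, as 0.209% of tested genes had (0.3% in either direction).

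MPP4 against MPP3 divided Jchain from the other members. Jchain fell by 9.46 on the log2 scale (SE 1.78, adjusted p = 0.00753), 1 of 7 members called and the lone one called lower, where 0.675% of tested genes were lower and 0.294% higher, 0.969% in all. Its mean was 255 ± 355 CPM in MPP4 and 7224 ± 6347 CPM in MPP3 (n = 8 each). Ighm was lower by 2.14 (SE 1.06, adjusted p = 0.460) and Blnk higher by 2.33 (SE 1.13, adjusted p = 0.458), and neither passed, although all MPP4 libraries were above all MPP3 libraries for Blnk, as they were for 0.428% of tested genes (0.653% in either direction). Cd79a, Cd79b, Igll1 and Vpreb1 differed by less than their standard errors. The call of Jchain was lost without the 8 multiple-of-3 libraries (-9.14, adjusted p = 0.167) and without 1013/1013 library 2 of MPP4 (-9.12, adjusted p = 0.124).

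The comparison of genotypes asked whether the 1013 allele changes these genes, and by edgeR 0 of 7 members passed in any of the 6 comparisons run. For +/1013 against wild type over the 4 subsets, 0.0214% of tested genes were called, 3 members had an unadjusted p under 0.05 and DESeq2 called 2, Jchain higher and Blnk lower. The log2 difference by edgeR was 4.52 for Jchain (SE 1.08, unadjusted p = 0.000353, adjusted p = 0.825), 1.82 for Ighm (SE 0.84, adjusted p = 1) and -3.89 for Blnk (SE 1.10, adjusted p = 1), the last with groups at 0 in MPP1 and MPP2. Cd79a differed by 0.79 (SE 0.81), Cd79b by 0.19 (SE 0.15), Vpreb1 by -0.71 (SE 0.45) and Igll1 by -0.82, with 2 groups at 0 and no SE (adjusted p = 1 each). Without MPP1 +/1013 library 1 the difference of Ighm reversed, to -0.93. For 1013/1013 against wild type over the subsets, 0.685% of tested genes were called (0.209% higher, 0.477% lower), no member had an unadjusted p under 0.05 and DESeq2 called 0. Jchain differed by -0.42 (SE 1.11) and Ighm by 0.11 (SE 0.91), both less than the standard error. The other 5 differed by -0.94 for Cd79a (SE 0.89), 0.16 for Cd79b (SE 0.17), -0.50 for Vpreb1 (SE 0.50), -1.42 for Blnk (SE 1.02) and -0.69 for Igll1, which has no SE. Their adjusted p-values ran from 0.559 for Blnk to 1 for Igll1. Of these 5, Cd79a and Blnk each had 1 group at 0 and Igll1 had 2. For 1013/1013 against +/1013, where 0.0428% of tested genes were called, Jchain was the 1 member with an unadjusted p under 0.05 and the 1 called by DESeq2. Its difference by edgeR was -4.94 (SE 1.34, adjusted p = 0.255), and that of Ighm was -1.72 (SE 0.97, adjusted p = 0.646). Cd79a differed by -1.74 (SE 0.99, adjusted p = 0.655), with 1 group at 0. Cd79b differed by -0.03 (SE 0.17) and Vpreb1 by 0.21 (SE 0.49), while Igll1 (0.13) and Blnk (2.46) had groups at 0 and no SE (adjusted p = 1 for these 4). These 3 comparisons share libraries and are not independent of each other.

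Within MPP4, +/1013 against wild type had 0% of tested genes called by edgeR. The 3 +/1013 libraries had 560 to 765 CPM of Jchain and the 3 wild-type libraries 0 to 1.92 CPM, a log2 difference of 9.12 (SE 2.66, unadjusted p = 0.00229, adjusted p = 1), and Jchain was the 1 member with an unadjusted p under 0.05. DESeq2 called it, with an adjusted p of 0.000751, and called no other member. For 3.16% of tested genes, all +/1013 MPP4 libraries likewise lay above all wild-type ones (6.03% in either direction). Ighm differed by 0.37 (SE 1.62), Cd79a by 0.13 (SE 1.57), Cd79b by -0.02 (SE 0.30), Vpreb1 by 0.56 (SE 0.89), Igll1 by -0.41 (SE 2.42) and Blnk by -0.32 (SE 1.72) in this comparison, each less than its standard error. For 1013/1013 against wild type in MPP4, where 0.712% of tested genes were called (0.0696% higher, 0.643% lower), no member was called by edgeR or DESeq2 and none had an unadjusted p under 0.05. Jchain differed by -0.37 (SE 2.37), Ighm by -0.42 (SE 1.83), Cd79a by 0.75 (SE 1.73), Cd79b by 0.05 (SE 0.34), Igll1 by 0.55 (SE 2.68) and Blnk by -0.45 (SE 1.94), each less than its standard error, and Vpreb1 by 1.19 (SE 0.98, adjusted p = 0.547). The difference of the 1013/1013 effect in MPP4 from its mean in MPP1 to MPP3, in which 0.102% of tested genes were called, gave 0 members by edgeR, by DESeq2 and at an unadjusted p under 0.05. Its lowest p among the members was that of Vpreb1 (log2 2.25, SE 1.14, adjusted p = 0.642), and the other 6 ran from -0.71 for Ighm to 2.26 for Cd79a. Among these 6, Cd79a and Blnk each had 1 group at 0 and Igll1 had 2.

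Light chain RNA separated the Ighm of MPP4 from that of MPP3. Igkc, the constant gene of the kappa light chain, had 239 to 19073 CPM in MPP3. In MPP4 it had 0.126, 0.867 and 13.7 CPM in wild type, 593, 157 and 407 in +/1013 and 18.5 and 1.96 in 1013/1013. The 5 MPP4 libraries without high Jchain had thus at most 2.14 counts of Igkc per 100 counts of Ighm, the 3 +/1013 libraries of MPP4 had 10.4 to 50.5, and the 8 MPP3 libraries had 66.1 to 266. Counts of Jchain per 100 counts of Ighm were at most 0.225 in those 5, 37 to 65.1 in the 3 and 104 to 591 in MPP3. Igkc fell by 7.52 from MPP3 to MPP4 (SE 1.57, adjusted p = 0.0168) over the genotypes. In MPP1, +/1013 library 1 had 343 CPM of Igkc and the other 7 at most 1.89 CPM. Libraries with high Jchain were thus libraries with high Igkc, with a Pearson correlation of log2(CPM + 1) of 0.97 across 32 libraries and 0.98 across the 24 outside these 8, again as a description.

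**Figure D3:**
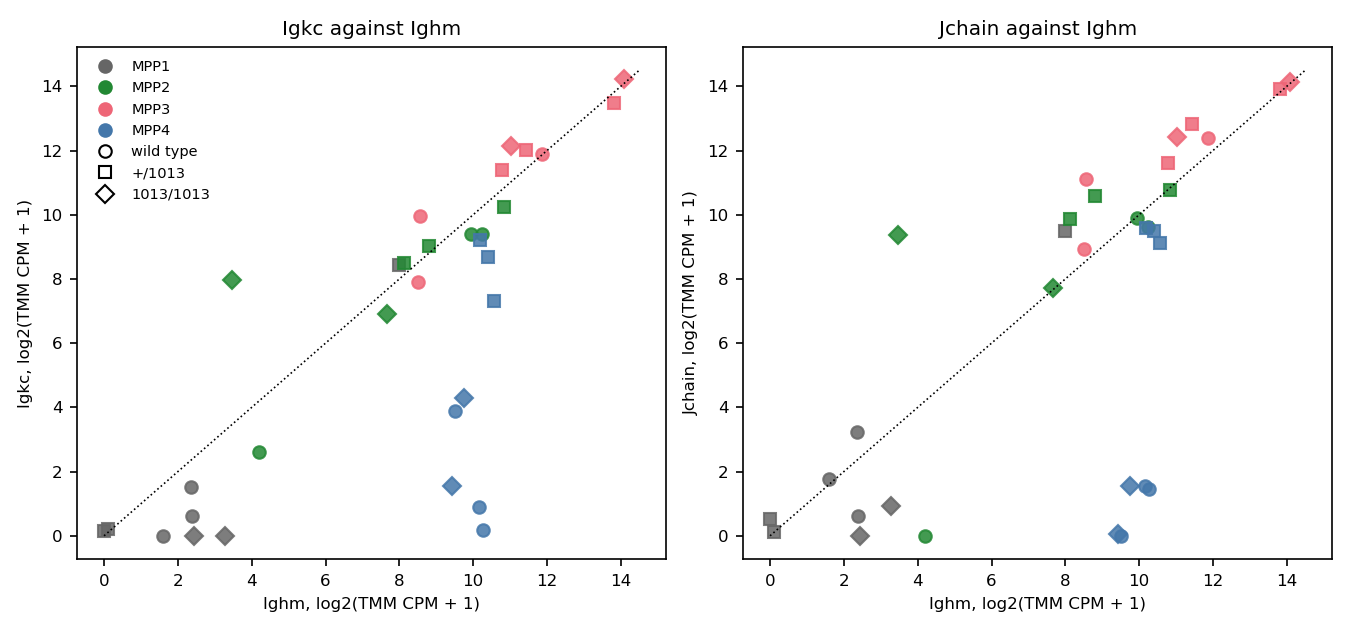
Igkc (left) and Jchain (right) against Ighm in 32 libraries, each as log2(TMM CPM + 1), with subset in colour and genotype by shape and the dotted line marking equal values. MPP4 wild-type and 1013/1013 libraries lie at high Ighm with Igkc of at most 18.5 CPM and Jchain of at most 1.94 CPM, and MPP3 libraries lie near or above the line.

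The variable segments gave a second description of immunoglobulin RNA in these libraries, chosen after the values were seen and given with no test. Heavy V counts per 100 counts of Ighm were 10.8 to 58.6 in MPP4 and 4.49 to 10.4 in MPP3. Whether V and Ighm counts came from the same transcripts was not tested. The table holds 95 heavy-chain and 84 kappa V segments, many of them near-identical, so that their counts are uncertain. In MPP3, 1 heavy V segment, Ighv11-2 (chr12:114048241-114048812), led in 7 of 8 libraries with a median of 72.6% of heavy V counts, and 1 kappa V segment, Igkv14-126 (chr6:67896172-67896642), led in 7 of 8 with a median of 66.3%. The exception was wild type 1 for both, led by Ighv8-8 and Igkv4-57-1. MPP2 had at least 100 heavy V counts in 6 libraries, of which Ighv11-2 led 5, and at least 100 kappa V counts in 7, of which Igkv14-126 led 5. The MPP1 +/1013 library 1 had the same leading segments, at 83.1% and 99.7%. As background, this pair of segments is known from antibodies to phosphatidylcholine made by B-1 cells in mice. By heavy V segments MPP4 was different. Ighv1-77 (chr12:115861867-115862355) led in 8 of 8 libraries with 25.6% to 34.6% of heavy V counts. It had no count in MPP1 and at most 14.2% of heavy V counts in MPP3. Ighv11-2 had at most 14.1% of heavy V counts in MPP4, in +/1013 library 3. The 5 MPP4 libraries of wild type and 1013/1013 had 5054 to 10720 heavy V counts and 20 to 190 kappa V counts. In the 3 +/1013 libraries of MPP4 the leading kappa segments were Igkv12-44, Igkv6-17 and Igkv14-126, 1 in each. Of the 5 MPP4 libraries with at least 100 kappa V counts, Igkv14-126 led 3. These were wild type 3 (27.6% of 123 counts), +/1013 3 (73.4% of 5312) and 1013/1013 1 (80% of 190). Mu made up 68.4% to 100% of heavy constant counts in MPP3 and 98.5% or more in MPP4.

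**Figure D4:**
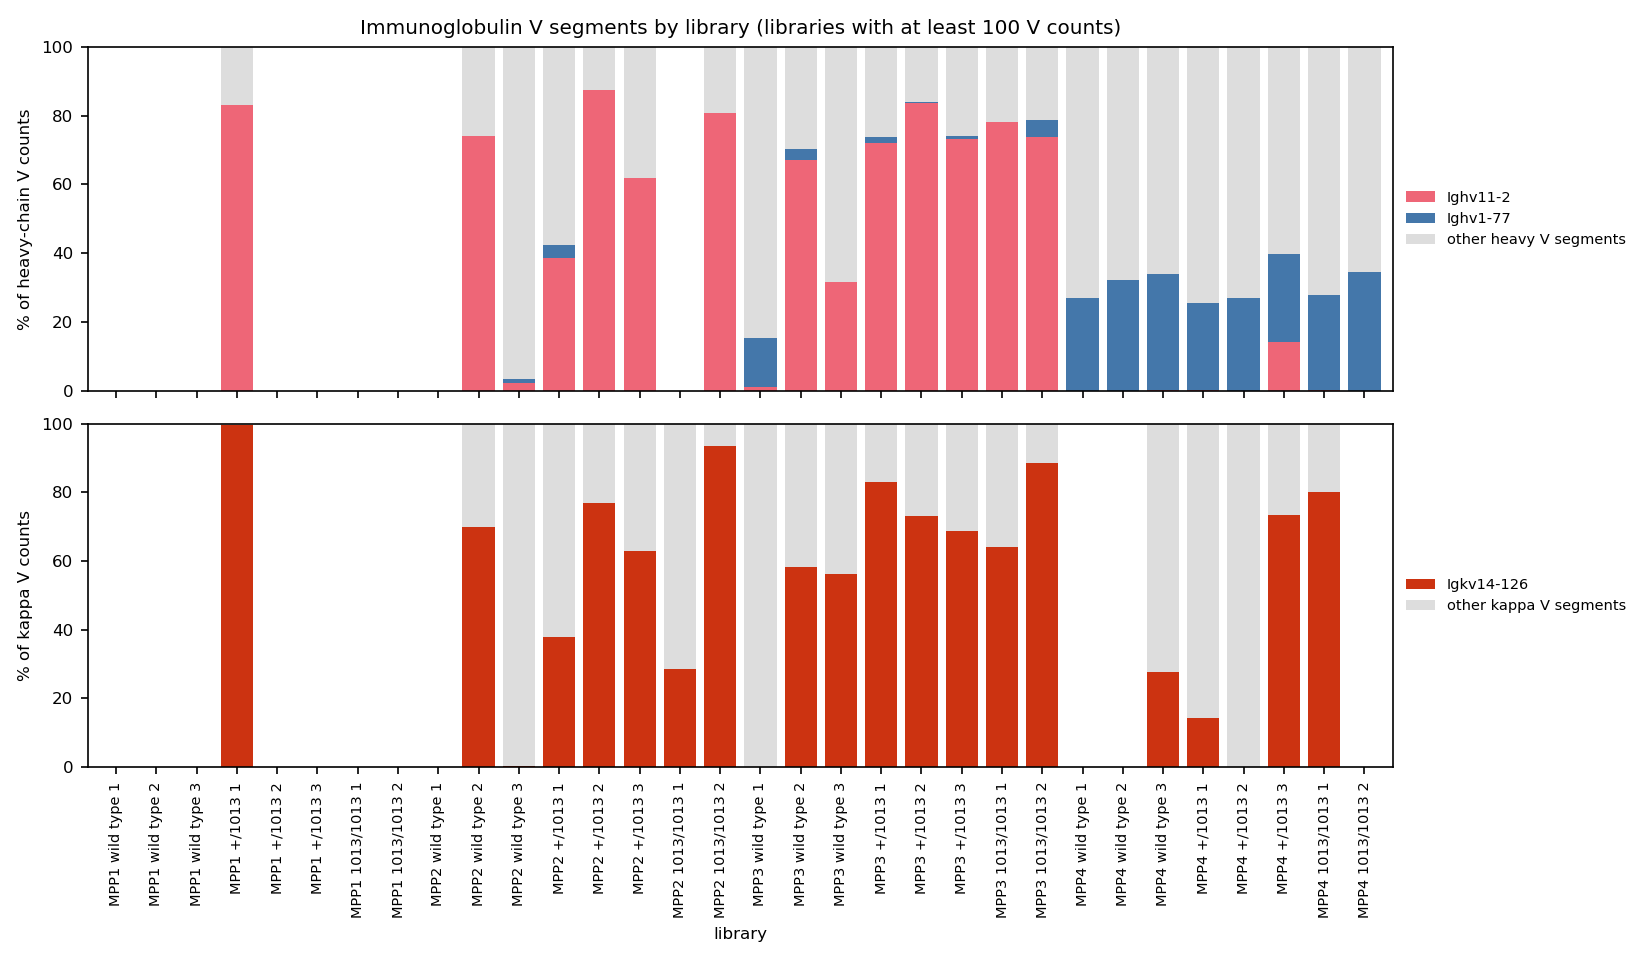
Share of heavy-chain V counts (top, in %) taken by Ighv11-2 and Ighv1-77, and share of kappa V counts (bottom, in %) taken by Igkv14-126, in each library with at least 100 such counts; blank positions are libraries with fewer. Ighv11-2 leads in 7 of 8 MPP3 libraries and Ighv1-77 in 8 of 8 MPP4 libraries.

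Markers of other cells were followed beside these members. Of 8 mature B cell markers, Ms4a1 (CD20) had no count in MPP1, counts in 8 of 8 MPP3 libraries with a median of 16.3 CPM, and in 5 of 8 MPP4 libraries with a median of 1.69 CPM. Cr2, Fcer2a and Cd22 had medians of 0 or, for Cr2 in MPP4, 0.305 CPM. The summed level of the 8 markers, mostly Igkc, was highest in MPP3, at 291 to 19097 CPM, followed by MPP2 with 27 to 1236, MPP4 with 2.03 to 604 and MPP1 with 0.1 to 343. Against MPP1, 3 of the 8 were called higher in MPP2 (5.01% of all tested genes), 4 in MPP3 (2.36%) and 2 in MPP4 (7.59%), Igkc among those of MPP2 and MPP3. Of 11 plasma cell markers, whose summed level was 832 to 1035 CPM in MPP1 and 1053 to 1999 CPM in MPP3, Mzb1, a chaperone of IgM assembly, had its highest median in MPP3 (79.0 CPM), with 15.9 CPM in MPP2, 16.1 CPM in MPP4 and 0.142 CPM in MPP1, and was called higher in all 3 comparisons with MPP1. Of the 11, 4 were called higher (7.59% of all tested genes) and 1 lower (7.12%) in MPP4 than in MPP1, with 4 negative differences in all. Against MPP1, 4 were higher in MPP3 (2.36%) and 2 in MPP2 (5.01%). The gene called lower was Fkbp11, a protein folding enzyme of the secretory pathway, in MPP4 against MPP1 (-1.44, SE 0.30, adjusted p = 0.00231) and against MPP3 (-1.43, SE 0.30, adjusted p = 0.0147). Prdm1, the regulator of plasma cell fate, had medians of 0 to 0.513 CPM. The surface proteoglycan gene Sdc1, also a plasma cell marker, had its highest median in MPP4, 222 CPM, where Jchain was near 0 in 5 of 8 libraries. Of 8 tested markers of plasmacytoid dendritic cells, 4 were higher in MPP4 than in MPP1 (7.59% of all tested genes), Cox6a2, Ccr9, Cd300c and Siglech. Siglech, their defining surface receptor, had counts in 7 of 8 MPP4 libraries (up to 38.9 CPM) and none in MPP3. Over the 8, 5 differences were positive and 3 negative in MPP4 against MPP1. Against MPP1, 1 of the 8 was also called higher in MPP3 (2.36% of all tested genes), Cox6a2 (adjusted p = 0.0125). In MPP2, 2 were called higher (5.01%), Cox6a2 (adjusted p = 0.0462) and Smim5 (1.08, SE 0.24, adjusted p = 0.00870). Tcf4, a regulator of these cells, was the 1 called lower in MPP2 than in MPP1 (-1.45, SE 0.44, adjusted p = 0.04999), where 1.72% of all tested genes were. Of 6 T cell markers, Cd3d was called higher in MPP2 than in MPP1 (adjusted p = 0.0272), where 5.01% of all tested genes were. Cd3d and Cd8a were called higher in MPP4 than in MPP1 (0.0410 and 0.0327), where 7.59% were. The summed levels of the 6 were at most 6.46 CPM in MPP1 and 17.7 CPM elsewhere. The part of mature B cells, plasma cells, dendritic cells or T cells in the levels of the 7 members was not tested.

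Other genes of the receptor pathway were called in both directions, as were tested genes at large. Over all tested genes, 7.59% were called higher and 7.12% lower in MPP4 than in MPP1. Against MPP1, 2.36% were called higher in MPP3 and 5.01% in MPP2. In MPP4 against MPP3, 0.294% were called higher and 0.675% lower. Of 31 tested co-receptor and signalling genes, 4 were higher and 4 lower in MPP4 than in MPP1, with a median log2 difference of -0.32 against -0.15 over all tested genes. Among the higher were Lat2, an adaptor (log2 3.23, SE 0.46, adjusted p = 4.42e-05), Blk, a Src-family kinase of B cells (adjusted p = 0.000903, with MPP1 groups at 0) and Cd72, an inhibitory co-receptor (0.94, SE 0.30, adjusted p = 0.0396). Those lower were the kinases Syk (-1.69, SE 0.56, adjusted p = 0.0458) and Fyn (-1.55, SE 0.33, adjusted p = 0.00272), the adaptor Dapp1 (-0.91, SE 0.19, adjusted p = 0.00215) and the lipid kinase subunit Pik3cd (-1.99, SE 0.49, adjusted p = 0.00837). Of 12 tested B lineage regulators and recombination genes, 6 were higher in MPP4 than in MPP1 and none lower, among them Rag2, a subunit of the recombinase, Dntt, which adds bases at joints (a median of 0 CPM in MPP1 and 3199 CPM in MPP4), and Il7r, the interleukin 7 receptor chain. The same list had 5 higher in MPP3 and 2 in MPP2, and Rag2 alone was higher in MPP4 than in MPP3 (3.79, SE 0.85, adjusted p = 0.0395). Of 11 tested immunoglobulin and surrogate light chain genes outside the members, 4 were higher in MPP4 than in MPP1, Vpreb2, Vpreb3, Ighd and Iglc3, and 4 in MPP3 and in MPP2, in both the kappa gene Igkc and the lambda genes Iglc1, Iglc2 and Iglc3. In MPP4 against MPP3, Igkc and Iglc2 were lower and none of the 11 higher. In the genotype comparisons over the subsets, 0 genes of these 3 lists passed by edgeR.

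The genes most like each member across the 32 libraries were taken by Pearson correlation of log2(CPM + 1). For Blnk they were Cd300lb (0.92), Ighv1-23 (0.88) and Rag2 (0.88), and for Igll1 they were Vpreb1 (0.87), Vpreb3 (0.86) and Xlr4a (0.81). For Vpreb1 they were Igll1 (0.87), Vpreb3 (0.81) and Reep5 (0.78). Ighm was most like Mzb1 (0.92), Cst7 (0.86) and Ccl9 (0.86), and Cd79a most like Tyrobp (0.88), Ltb4r1 (0.87) and Ccl9 (0.87). Jchain was most like Igkc (0.97), Iglc2 (0.88) and Igkv14-126 (0.85), and Cd79b most like Selenos (0.76), Agpat2 (0.71) and Umps (0.69). Between members, the correlation of Jchain with Blnk was 0.04 and with Ighm 0.68, that of Ighm with Blnk 0.60 and with Cd79a 0.81. Cd79a also had correlations of 0.78 with Igll1 and 0.71 with Vpreb1, and Igll1 had 0.65 with Blnk. The libraries share subsets and genotypes, so these values describe them and carry no p.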

How the data were processed

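RNA of 32 pools of sorted progenitors was measured by sequencing. The authors' deposited counts per gene, named raw in the file headers, were used. Alignment with STAR and counting with HTSeq on mm10 are given by the submitters' processing notes, whose versions and strand option the sources used here do not give. Another 64 per-sample columns of normalized values were not used, and the deposited median transcript length (other information per gene, per the file headers) served for levels per kilobase.

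The count model was that of edgeR 4.0.16 (R 4.3.3), with TMM scaling, filterByExpr on 12 groups, a trended dispersion, 1 coefficient per group and a quasi-likelihood F-test with 20 residual degrees of freedom, Benjamini-Hochberg adjustment over 18676 genes and a threshold of 0.05. Standard errors (SE) were derived from the log2 difference and F. The fit was run on simulated data with changes planted in genes away from the floor, at the dispersion of the fit itself. That setting does not cover members with groups at 0 or with a wider spread. Correlations used log2(CPM + 1), and likeness was restricted to genes with a mean of at least 1 CPM. Floors of 3 counts cover counting error only, since reads carry no molecular identifiers. Alternatives were RLE size factors, no filter, DESeq2 1.42.0, a replicate block, terms for library numbers, and leaving out libraries. The members, lists and tests were chosen with earlier results of these data known. Named genes are the 7 members, up to 4 called members of each list, defining markers and the 3 genes most like each member. A gene of these lists is not reported here by name. V segments, Cd48, Top3b and further values given for list members were chosen after values were seen. Positions are mm10 as deposited, promoters are from RefSeq (5 of 7 members matched), and gene overlaps are from GENCODE M21.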

Additional observations from a re-analysis of the deposited data

How the results depend on the processing

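Over 7 alternatives other than leaving out 1 library, the number of members past the threshold, though not always which members, stayed within 1.5 times the edgeR count except as follows. In MPP2 against MPP1 (4 members) it was 1 without the 8 multiple-of-3 libraries and 2 with a term for the 5 highest-numbered libraries (46 and above). Within unchanged or near counts, MPP4 against MPP1 lost Cd79b under 2 alternatives and Vpreb1 under 1, and MPP3 against MPP1 exchanged Blnk for Cd79b without the 8. The count was 0 in MPP4 against MPP3 without the 8. DESeq2 called 4 members in wild-type MPP4 against MPP1, 2 for +/1013 over the subsets, 1 for 1013/1013 against +/1013 and 1 for +/1013 in MPP4, where edgeR called 0. Over all genes, DESeq2 called 4570 (MPP4 against MPP1), 1852 (MPP3), 3056 (MPP2), 1045 (MPP4 against MPP3), 753 (wild-type MPP4 against MPP1), 193 (+/1013), 1854 (1013/1013), 774 (1013/1013 against +/1013), 118 (+/1013 in MPP4), 2079 (1013/1013 in MPP4) and 863 (the difference of effects), where edgeR called 2747, 581, 1256, 181, 142, 4, 128, 8, 0, 133 and 19. Without the 8 libraries edgeR called 381 in MPP3 against MPP1, 1127 for 1013/1013, 597 for 1013/1013 against +/1013 and 45 for 1013/1013 in MPP4; the term for the 8 gave 207 for 1013/1013, and the term for the late numbers gave 585 in MPP2 against MPP1, 85 for 1013/1013 and 76 for 1013/1013 in MPP4.

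Leaving out 1 library at a time gave 1509 to 3179 genes and 4 to 7 members (MPP4 against MPP1), 122 to 973 and 1 to 5 (MPP3), 370 to 1975 and 0 to 4 (MPP2), 94 to 493 and 0 to 1 (MPP4 against MPP3), 73 to 108 (wild-type MPP4 against MPP1), 4 to 5 (+/1013), 37 to 1369 (1013/1013), 4 to 520 (1013/1013 against +/1013), 0 to 0 (+/1013 in MPP4), 18 to 697 (1013/1013 in MPP4) and 9 to 427 genes (the difference of effects), with 0 members in these last 7. A lone remaining library is then assumed to vary like the other groups. The causes of these changes were not tested, beyond the smaller number of libraries.

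The reversed differences, given on the log2 scale, were all of members that did not pass in the comparison concerned. Without the 8 multiple-of-3 libraries, they were -0.50 (Vpreb1, MPP2 against MPP1), -0.072 (Igll1, MPP4 against MPP3), 2.44 (Igll1), 0.018 (Vpreb1) and -0.81 (Ighm) for 1013/1013 over the subsets, 0.062 (Cd79b) and -0.0041 (Blnk) for 1013/1013 against +/1013, 0.13 (Cd79b, +/1013 in MPP4), 0.083 (Jchain, 1013/1013 in MPP4), and -1.88 (Igll1) and 0.45 (Ighm) for the difference of effects. With a term for these 8, MPP4 against MPP3 was 0.016 for Cd79b and -0.29 for Igll1. With the term for the late numbers, values were 0.025 (Cd79a, MPP4 against MPP3), 0.42 and 0.50 (Jchain, 1013/1013 over the subsets and in MPP4), -0.12 (Igll1, 1013/1013 against +/1013), 0.45 (Ighm, 1013/1013 in MPP4) and 0.11 (Ighm, difference of effects). DESeq2 gave -0.29 for Igll1 in 1013/1013 against +/1013.

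Ranges over single left-out libraries crossed 0 for Jchain in MPP4 against MPP1 (-1.20 to 3.57). In MPP4 against MPP3 they were -0.68 to 0.38 (Cd79a), -0.12 to 0.072 (Cd79b), -0.088 to 0.52 (Igll1) and -0.0085 to 0.50 (Vpreb1). For +/1013 over the subsets they were -0.87 to 1.67 (Cd79a), -3.42 to 2.21 (Igll1) and -0.93 to 2.33 (Ighm), and for 1013/1013, -0.029 to 0.29 (Cd79b), -1.003 to 2.34 (Igll1), -0.83 to 0.14 (Vpreb1), -0.75 to 0.61 (Ighm) and -3.90 to 0.26 (Blnk). For 1013/1013 against +/1013 they were -0.21 to 0.096 (Cd79b), -0.18 to 2.74 (Igll1), -0.12 to 0.36 (Vpreb1), -2.57 to 1.03 (Ighm) and -0.023 to 2.70 (Blnk). Within MPP4 they were -0.48 to 0.91 (Cd79a), -0.24 to 0.18 (Cd79b) and -0.997 to 0.087 (Igll1) for +/1013, and -0.22 to 0.27 (Cd79b), -0.031 to 1.05 (Igll1) and -4.87 to 0.68 (Jchain) for 1013/1013. For the difference of effects they were -0.40 to 0.086 (Cd79b), -2.38 to 2.16 (Igll1), -1.38 to 0.43 (Ighm), -4.43 to 2.34 (Jchain) and -0.94 to 4.59 (Blnk).

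Replicate numbers do not pair the libraries by the labels: of 28 same-numbered pairs within a subset, 15 had correlated deviations above 0.1 (median 0.12), and 22 of 32 libraries correlated best with their own number, a hint from the data and not the design. A fit with the replicate number as a block changed no call of a member, and it reversed Igll1 in MPP4 against MPP3 (-0.17), Igll1 (2.03), Vpreb1 (0.095) and Ighm (-0.13) for 1013/1013 over the subsets, and Igll1 for +/1013 in MPP4 (0.37).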
